A study of Mus musculus with 16 samples.

Results

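The genes examined here are the type 2 cytokines Il4, Il5 and Il13, the alarmins Il33 and Tslp, the growth factor Areg, and the receptor chains Il1rl1, Il4ra and Il13ra1. They were taken by gene symbol, and all 9 were found among the 18635 genes listed in the deposited count tables of mouse tumours with and without a knockout of Trp53bp1, which encodes the DNA repair factor 53BP1. The series asked how loss of 53BP1 acts on the immune response. The samples were 3 wild-type (WT) and 3 Trp53bp1 KO (knockout) tumours of ID8, a transformed line from mouse ovarian surface epithelium, and 5 WT and 5 Trp53bp1 KO tumours of KPC, a mouse pancreatic cancer line, all described as grown from lines implanted in syngeneic mice. Age and implantation site are not given in the sources used here. The labels name a single line for each genotype, so a difference between genotypes cannot be told apart from a difference between the lines implanted, and the host's own cells carry no knockout in the labels. The samples are labelled biological replicates without naming the animals, so the p-values measure the spread between these samples.

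Type 2 immunity is the arm of the immune response directed at helminths and allergens, and it also takes part in tissue repair. Alarmins are released or secreted by epithelial and stromal cells: IL-33 is kept in the nucleus and set free on damage, and TSLP is secreted. IL-33 acts through ST2, the product of Il1rl1, on group 2 innate lymphoid cells, Th2 cells, regulatory T cells, mast cells and eosinophils. IL-4 and IL-13 share the receptor chain encoded by Il4ra. For IL-4 it pairs with the common gamma chain (Il2rg) or with the product of Il13ra1, and for IL-13 with the latter. Both cytokines activate STAT6. IL-5 supports eosinophils. Amphiregulin, the product of Areg, is a ligand of the EGF receptor that type 2 lymphocytes, regulatory T cells and epithelial cells can make.

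Library totals ranged from 17902877 to 19727541 counts. Levels below are CPM, counts scaled to library size and further scaled by trimmed mean of M values (TMM) within each line, and 3 counts correspond to 0.153 to 0.166 CPM. CPM of the lines are thus not TMM-scaled to each other, and differences in level between the lines were not tested. The targeted gene Trp53bp1 had 44.1 to 49.4 CPM in ID8 WT and 17.8 to 18.8 in ID8 knockout, and 46.7 to 56 CPM in KPC WT and 27.9 to 37.9 in KPC knockout, so that the genotypes were apart in both lines. The ID8 libraries, although labelled as tumours, had 0 counts of the leukocyte marker Ptprc, the macrophage marker Adgre1, the T cell marker Cd3e and the endothelial marker Cdh5. The labels call all samples tumours and also speak of RNA taken from cells, so whether the ID8 RNA came from whole tumour tissue is uncertain, and the ID8 values, their zeros and each comparison of the lines are given with that limit. In KPC, Ptprc was at 51 to 140 CPM in WT and at 105 to 222 CPM in knockout. The summed level of 6 pan-leukocyte markers was 331 to 898 CPM in KPC WT and 738 to 1509 CPM in KPC knockout, with 2 of the 6 called higher. Of all genes tested in KPC, 6.67% were called higher. The log2 changes of all 6 markers were positive, with a median of 1.12, beside -0.0124 over all tested genes. The summed level of 10 skeletal muscle markers was 659 to 35586 CPM in KPC WT and 20.5 to 6991 CPM in KPC knockout, and that of 10 epithelial markers was 6090 to 7196 and 9979 to 12158 CPM. In such bulk samples, a difference in the number of cells of a type and a difference in RNA per cell cannot be told apart.

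The 250 bases before the start of 5 of these genes are shown first. Il33 had the largest called change of the members that passed the filter on low counts. Il4, Il5 and Il13, neighbouring genes of chromosome 11, each had higher total counts in KPC knockout than in KPC WT. Areg had a lower mean in the knockouts of both lines, without passing the test. The sequences come from RefSeq's promoter table for build GRCm38.p6, matched by symbol, while the counts were made on GRCm39. A window was matched for 8 of the 9 members, the exception being Tslp, and Il4 has a further start that is not shown. Capitals mark matches to one of 7 motifs searched on both strands.
Il33, upstream start, chr19:29924863-29925112, plus strand: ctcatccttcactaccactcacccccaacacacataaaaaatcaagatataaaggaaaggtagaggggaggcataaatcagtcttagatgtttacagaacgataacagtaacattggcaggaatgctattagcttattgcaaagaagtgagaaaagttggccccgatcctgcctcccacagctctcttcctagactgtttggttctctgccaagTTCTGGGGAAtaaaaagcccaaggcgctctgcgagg
Il33, downstream start, chr19:29945540-29945789, plus strand: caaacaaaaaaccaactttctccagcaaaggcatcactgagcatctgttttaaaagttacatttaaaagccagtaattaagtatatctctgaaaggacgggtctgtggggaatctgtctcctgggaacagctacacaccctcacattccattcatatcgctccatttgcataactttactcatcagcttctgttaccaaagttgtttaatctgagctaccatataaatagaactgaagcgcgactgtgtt
Il4, chr11:53618666-53618915, minus strand: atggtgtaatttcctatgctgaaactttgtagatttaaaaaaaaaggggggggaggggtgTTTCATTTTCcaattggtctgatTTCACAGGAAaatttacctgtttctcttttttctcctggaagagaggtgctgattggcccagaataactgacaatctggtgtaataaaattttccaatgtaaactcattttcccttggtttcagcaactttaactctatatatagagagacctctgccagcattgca
Il13, chr11:53634703-53634952, minus strand: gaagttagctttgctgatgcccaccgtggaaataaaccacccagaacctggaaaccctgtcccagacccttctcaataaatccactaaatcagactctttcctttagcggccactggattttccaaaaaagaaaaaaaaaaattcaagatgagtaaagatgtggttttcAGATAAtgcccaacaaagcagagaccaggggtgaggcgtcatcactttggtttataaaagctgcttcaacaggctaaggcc
Il5, chr11:53720544-53720793, plus strand: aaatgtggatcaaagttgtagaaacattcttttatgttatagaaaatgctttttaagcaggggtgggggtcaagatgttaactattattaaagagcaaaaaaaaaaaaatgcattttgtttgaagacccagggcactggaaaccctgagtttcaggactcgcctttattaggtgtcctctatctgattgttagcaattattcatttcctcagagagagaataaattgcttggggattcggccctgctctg
Areg, chr5:91139349-91139598, plus strand: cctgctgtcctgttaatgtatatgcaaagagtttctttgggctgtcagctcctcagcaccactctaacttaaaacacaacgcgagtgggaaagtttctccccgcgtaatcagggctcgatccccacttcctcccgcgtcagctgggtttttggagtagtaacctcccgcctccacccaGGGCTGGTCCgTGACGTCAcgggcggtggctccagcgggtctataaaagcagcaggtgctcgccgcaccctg

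The upstream start of Il33 holds 1 match to the STAT6 motif (TTC and GAA with 4 bases between them), at 36 to 27 bases before the start, and Il4 holds another at 167 to 158 bases before its start. That motif was present in 5.85% of 32851 windows of the same length. Il4 also holds a match to the core of the interferon-stimulated response element (2.98% of windows), and Il13 a match to the GATA motif AGATAA at 81 to 76 bases before its start (9.99% of windows). Areg holds the cyclic AMP response element TGACGTCA at 61 to 54 bases before its start, present in 1.55% of windows, next to a match to the NF-kB motif, present in 45.8%. The Il5 window and the downstream Il33 window held no match to these or to the AP-1 motif TGANTCA and the shorter STAT motif (6.75% and 7.02% of windows). No motif matches overlapped in the windows shown. A match is a run of letters and not a measured binding site.

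Several members were near or below the level that can be counted. In ID8, Il4 and Il13 had 0 counts in all 6 libraries, which allows up to 0.153 to 0.158 CPM per library. Il5 and Tslp were below 3 counts in all 6 ID8 libraries, and Il1rl1 was below 3 in all 3 WT and in 1 of 3 knockout libraries. In KPC, Il4, Il5 and Il13 were below 3 counts in all 5 WT libraries. In the KPC knockout, Il4 and Il13 were each below 3 counts in 1 library and Il5 in none. The other members had at least 3 counts in every KPC library. After the filter on low counts, 4 members were tested in ID8 (Il33, Il4ra, Il13ra1 and Areg) and 5 in KPC (these and Il1rl1). By the edgeR quasi-likelihood test at an adjusted p of 0.05, 2 of the 4 were called in ID8, where 50.8% of all tested genes were called, and 0 of the 5 in KPC, where 13.7% were called (6.67% higher and 7.01% lower in knockout). The members' share in ID8 is near that background. In ID8, DESeq2 and the fit without the filter on low counts also called 2 members, with 44.0% and 40.3% of all genes called. In KPC the DESeq2 Wald test called 3 of the 5 (Il1rl1, Il4ra and Areg), with 22.2% of all genes called, and at an unadjusted edgeR p under 0.05 there were 4637 of 14283 genes.

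**Figure D1:**
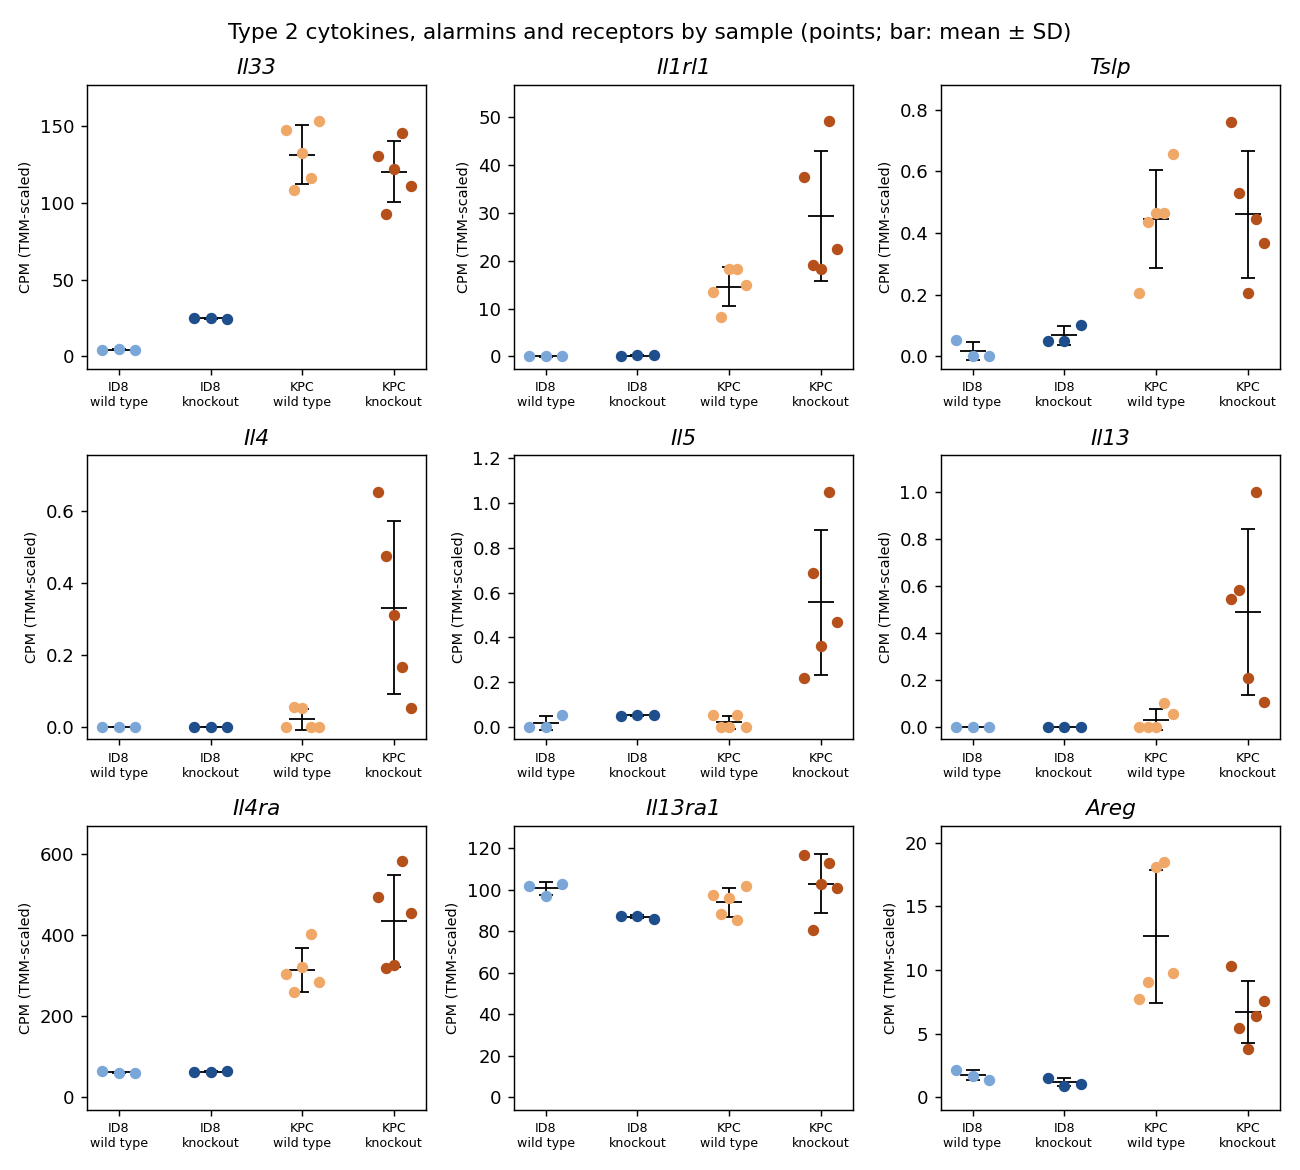
Level of each member in every sample. The vertical axis is TMM-scaled CPM, points are samples, and bars are the mean and SD of 3 (ID8) or 5 (KPC) samples. Il33 separates the ID8 genotypes (4.1 to 4.59 against 24.2 to 25.1 CPM) and overlaps between the KPC genotypes, while Il4, Il5 and Il13 stay under 1.1 CPM in every sample.

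Il33, the alarmin, was higher in ID8 knockout tumours and was not called in KPC. In ID8 WT it had 4.12, 4.59 and 4.1 CPM and in ID8 knockout 24.9, 25.1 and 24.2 CPM. Genotypes did not overlap for 58.0% of all genes tested in ID8. For Il33 every knockout sample was above every WT sample, and the spread within each group was small beside the gap. The mean rose from 4.27 ± 0.275 to 24.7 ± 0.474 CPM (SD, n = 3 each), with a log2 fold change of 2.53 (SE 0.0895, edgeR adjusted p = 1.485e-12). An exact permutation test, two-sided, returned p = 0.1, the lowest that 3 against 3 samples allow. In KPC WT Il33 had 147, 108, 132, 116 and 153 CPM, and in KPC knockout 130, 92.4, 122, 145 and 111 CPM. These ranges overlapped almost completely, with a log2 difference of -0.13 (SE 0.131, edgeR adjusted p = 0.516). The knockout effect in KPC minus that in ID8 was -2.63 in log2 units (SE 0.204; interaction by edgeR, adjusted p = 8.05e-07). The interaction test called 21.9% of all genes and 1 of the 6 members it could be fitted for, namely Il33 (Il1rl1, Tslp, Il4ra, Il13ra1 and Areg did not pass). In order of level the groups were ID8 WT, ID8 knockout, KPC knockout and KPC WT, of which the KPC groups did not differ beyond their spread. Even after its rise, Il33 in ID8 knockout stayed below the lowest KPC sample, 92.4 CPM. The summed level of 10 fibroblast markers was 635 to 738 CPM over the ID8 libraries and 8510 to 14437 CPM over the KPC libraries. In ID8 that sum came mostly from Dcn (mean 439 CPM in WT and 584 in knockout) and Col1a1 (174 and 81.8). Fap had 0 counts in both ID8 genotypes, and Col1a2 had 12 counts in ID8 WT and 3 in ID8 knockout. The part of fibroblasts in the level of Il33 was not tested.

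Tslp, the other alarmin, stayed at a few counts. It had 1, 0 and 0 counts in ID8 WT and 1, 1 and 2 in ID8 knockout. In KPC WT it had 4, 8, 9, 9 and 12 counts and in KPC knockout 14, 10, 4, 8 and 7 counts. The KPC totals were 42 and 43 counts, a ratio of 1.03 per scaled library (95% counting interval 0.66 to 1.62), leaving aside the spread between tumours. No difference was detectable at this depth. Its receptor chain Crlf2 had a mean of 13.7 ± 0.416 and 15 ± 1.08 CPM in ID8 WT and knockout, and 13.2 ± 4.51 and 23.5 ± 9.24 CPM in KPC WT and knockout (edgeR adjusted p = 0.228 in ID8 and 0.0784 in KPC).

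Il1rl1, the gene of the IL-33 receptor ST2, was almost uncounted in ID8 and had a higher mean among KPC knockout tumours than among their controls without passing the test. ID8 WT had 0, 0 and 2 counts and ID8 knockout 1, 5 and 5 counts, a ratio of 5.37 (95% counting interval 1.17 to 49.9), and an exact permutation test, two-sided, returned p = 0.2. KPC WT had 13.4, 8.22, 18.2, 18.2 and 15 CPM, and KPC knockout had 37.5, 19.2, 18.2, 49.1 and 22.5 CPM. Knockout replicates 1 and 4 stood highest, and knockout replicate 3 lay at the level of WT replicates 3 and 4. The mean was 14.6 ± 4.14 CPM in WT and 29.3 ± 13.5 CPM in knockout (SD, n = 5 each), a log2 difference of 1.00 (SE 0.317, edgeR adjusted p = 0.0601). An exact permutation test, two-sided, returned p = 0.0238, unadjusted. DESeq2 gave an adjusted p of 0.00951, and the edgeR test without knockout replicate 2 gave 0.0489. Leaving out any other single library gave no call. Without knockout replicate 4 the log2 difference was 0.74 (edgeR adjusted p = 0.122). Knockout replicates 1 and 4 also held the highest Ptprc, the pan-leukocyte gene of CD45, at 218 and 222 CPM, and the part of leukocyte content in the difference was not tested. The counts are per gene and do not separate the soluble from the membrane form of ST2. Il1rap, the co-receptor of ST2, rose in ID8 knockout from 10.8 ± 0.392 to 15.7 ± 1.05 CPM (edgeR adjusted p = 6.373e-05) and was at 12.3 ± 2.49 and 15 ± 3.48 CPM in KPC WT and knockout (edgeR adjusted p = 0.285).

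The type 2 cytokine genes Il4, Il5 and Il13 had almost no counts in KPC WT tumours and a few in each KPC knockout tumour. Il5, the eosinophil growth factor gene, had 1, 0, 0, 1 and 0 counts in WT and 4, 13, 7, 19 and 9 in knockout. Il13 had 0, 0, 0, 2 and 1 counts in WT and 10, 11, 4, 18 and 2 in knockout. Il4 had 0, 1, 1, 0 and 0 counts in WT and 12, 9, 6, 3 and 1 in knockout. For Il5 every knockout library was above every WT library, while for Il13 and Il4 the lowest knockout library equalled the highest WT library, at 2 and 1 counts. The CPM of the genotypes did not overlap for 11.8% of all genes tested in KPC, a set that leaves out these cytokine genes. Over all libraries the totals were 2 and 52 counts for Il5, a ratio of 26.3 (95% counting interval 6.91 to 223). They were 3 and 45 for Il13, a ratio of 15.2 (interval 4.86 to 76.2), and 2 and 31 for Il4, a ratio of 15.7 (interval 3.98 to 135). These intervals cover counting error only. An exact permutation test of the counts, two-sided, returned p = 0.00794 for Il5, 0.0159 for Il13 and 0.0238 for Il4, unadjusted for the number of genes, and 0.00794 is the smallest p that 5 against 5 samples can give.

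**Figure D2:**
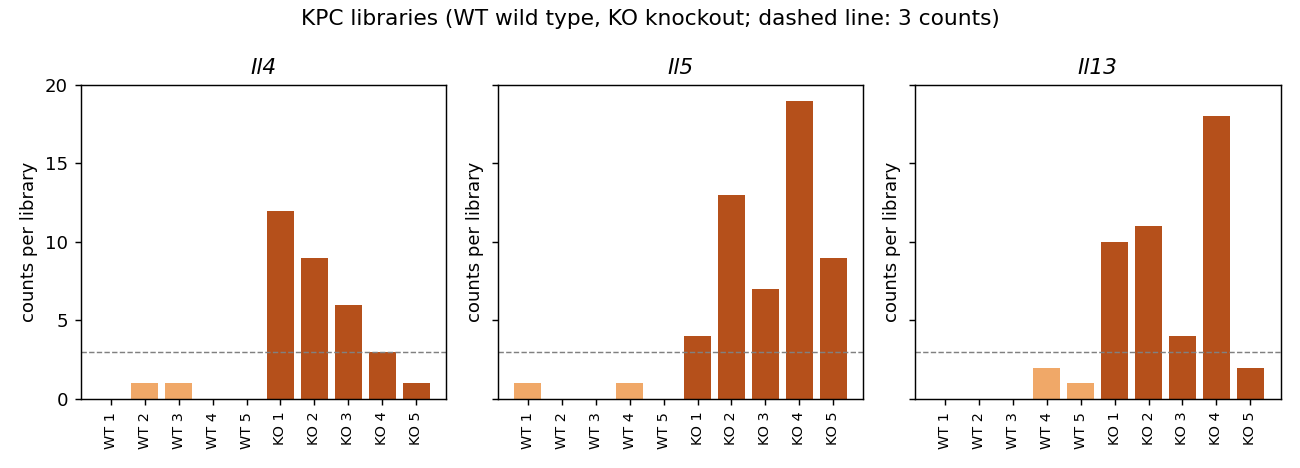
Counts of Il4, Il5 and Il13 in each KPC library. The vertical axis is the rounded expected count per library, bars are the 5 WT and 5 knockout libraries, and the dashed line marks 3 counts. All WT bars are at 2 counts or fewer, and the highest knockout bars reach 12, 19 and 18 counts.

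None of these cytokine genes passed the filter on low counts. With the filter dropped, the edgeR test over 18267 genes called all 3, with adjusted p of 0.00741 for Il5, 0.0255 for Il13 and 0.0278 for Il4, where 9.63% of all genes were called. Leaving out each library in turn, which was added once the data had been seen, kept the call of Il5 in 10 of 10 fits (largest adjusted p 0.0208). Il4 kept it in 6 of 10, losing it without WT replicate 1 (0.0686) or 5 (0.0674) or knockout replicate 1 (0.0626) or 3 (0.0514). Its log2 change was 3.22 to 4.11 over the 10 fits, beside 3.61 with all libraries. Il13 kept it in 5 of 10, losing it without WT replicates 1 (0.0618), 2 (0.0545), 3 (0.0523) or 5 (0.0534) or knockout replicate 4 (0.0613), with log2 changes of 3.26 to 4.62 over the 10 fits beside 3.69 with all libraries. Without the 4 libraries with the muscle gene Acta1 above 1000 CPM, the adjusted p was 0.0392 for Il5, 0.0336 for Il13 and 0.0517 for Il4, whose log2 change was 4.00. The highest library differed between the genes, being knockout replicate 4 for Il5 and Il13 and knockout replicate 1 for Il4. Of other type 2 cytokines, Il9 and Il31 were not listed for any group and so were taken as 0. Whether they were absent or not annotated cannot be told. Il25 had 1 count over all KPC libraries. Csf2, the gene of GM-CSF, rose in KPC knockout from 1.36 ± 0.464 to 4.06 ± 1.71 CPM (log2 change 1.58, SE 0.345, edgeR adjusted p = 0.0173).

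The receptor chain Il4ra was higher on average in KPC knockout, with overlapping groups, and its ID8 groups overlapped. ID8 WT had 64.2, 60.8 and 59.7 CPM and ID8 knockout 62.7, 62.1 and 64.9 CPM, a log2 difference of 0.04 (SE 0.0528, edgeR adjusted p = 0.579). KPC WT had 305, 261, 321, 404 and 286 CPM and KPC knockout had 494, 319, 328, 583 and 454 CPM. Knockout replicates 1, 4 and 5 were above every WT sample, and knockout replicates 2 and 3 lay among them. The means were 316 ± 54.2 and 435 ± 113 CPM (SD, n = 5 each), a log2 difference of 0.46 (SE 0.179, edgeR adjusted p = 0.104). DESeq2 gave an adjusted p of 0.0483, and the edgeR test without WT replicate 4 gave 0.0456. Leaving out any other single library gave no call. Without knockout replicate 4 the log2 difference was 0.34 (edgeR adjusted p = 0.211). Both genotypes of KPC lay above ID8, with WT means 5.13 times apart.

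Il13ra1, the chain that pairs with the product of Il4ra to bind IL-13, had the most even level of all members. ID8 WT had 102, 97.1 and 103 CPM and ID8 knockout 87.5, 87.2 and 86.1 CPM, without overlap. Genotypes did not overlap for 58.0% of all genes tested in ID8. The level fell by 0.21 on the log2 scale (SE 0.0476, edgeR adjusted p = 0.00141). KPC WT had 97.6, 88.5, 96.1, 85.4 and 102 CPM and KPC knockout 117, 80.7, 103, 113 and 101 CPM, with a log2 difference of 0.13 (SE 0.097, edgeR adjusted p = 0.362). The KPC change was more positive than that in ID8 by 0.37 in log2 units (SE 0.137; interaction by edgeR, adjusted p = 0.0647). Without KPC knockout replicate 2, the lowest of its group, that difference was 0.45 and its adjusted p 0.00424. Leaving out any other single library gave no call of that difference. Wild-type ID8 and KPC levels were 101 and 93.9 CPM. Per kilobase of exon in GENCODE M21, Il13ra1 was the most abundant member in ID8 WT (27.1 CPM per kilobase, against 10.3 for Il4ra and 1.48 for Il33). In KPC WT, Il4ra (52.6 CPM per kilobase) and Il33 (45.5) were above Il13ra1 (25.3), Areg (10.4) and Il1rl1 (2.12).

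The partners and the transcription factors of this pathway did not share one direction in ID8. Il2rg, the common gamma chain, fell in ID8 from 3.65 ± 0.476 to 0.973 ± 0.183 CPM (edgeR adjusted p = 9.042e-07), and in KPC it had 34.4 ± 16.6 CPM in WT and 68.5 ± 19.7 CPM in knockout (adjusted p = 0.0613). The difference between the lines was 2.91 in log2 units (SE 0.586; interaction by edgeR, adjusted p = 0.00301). Stat6, the factor that IL-4 and IL-13 activate, fell in ID8 from 143 ± 3.98 to 121 ± 3.78 CPM (edgeR adjusted p = 0.000355) and was at 112 ± 15 and 126 ± 14.1 CPM in KPC (0.252). Gata3, the factor of Th2 cells and group 2 innate lymphoid cells that epithelia also use, fell in ID8 from 17.9 ± 0.339 to 13.6 ± 1.81 CPM (edgeR adjusted p = 0.00171), in libraries with 0 counts of Cd3e. In KPC it had 6.5 ± 2.12 and 7.87 ± 1.9 CPM (0.437). Il13ra2, the decoy receptor of IL-13, had 4 counts in each ID8 genotype and 1.2 ± 0.658 and 2.49 ± 0.913 CPM in KPC WT and knockout (adjusted p = 0.0947). Of 24 genes of the receptor and signalling list, 18 were tested in ID8, of which 2 rose (Jak2 and Il1rap) and 6 fell, with a median log2 change of 0.0689. The 8 called of 18 are a share near the 50.8% called over all ID8 genes (25.4% higher, 25.5% lower). In KPC 23 were tested, of which 8 rose, among them Stat5a, Jak2 and Il17ra, and 1 fell (Irs2), with a median of 0.369, beside 6.67% and 7.01% over all KPC genes. The medians over all tested genes were 0.0062 and -0.0124.

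**Figure D3:**
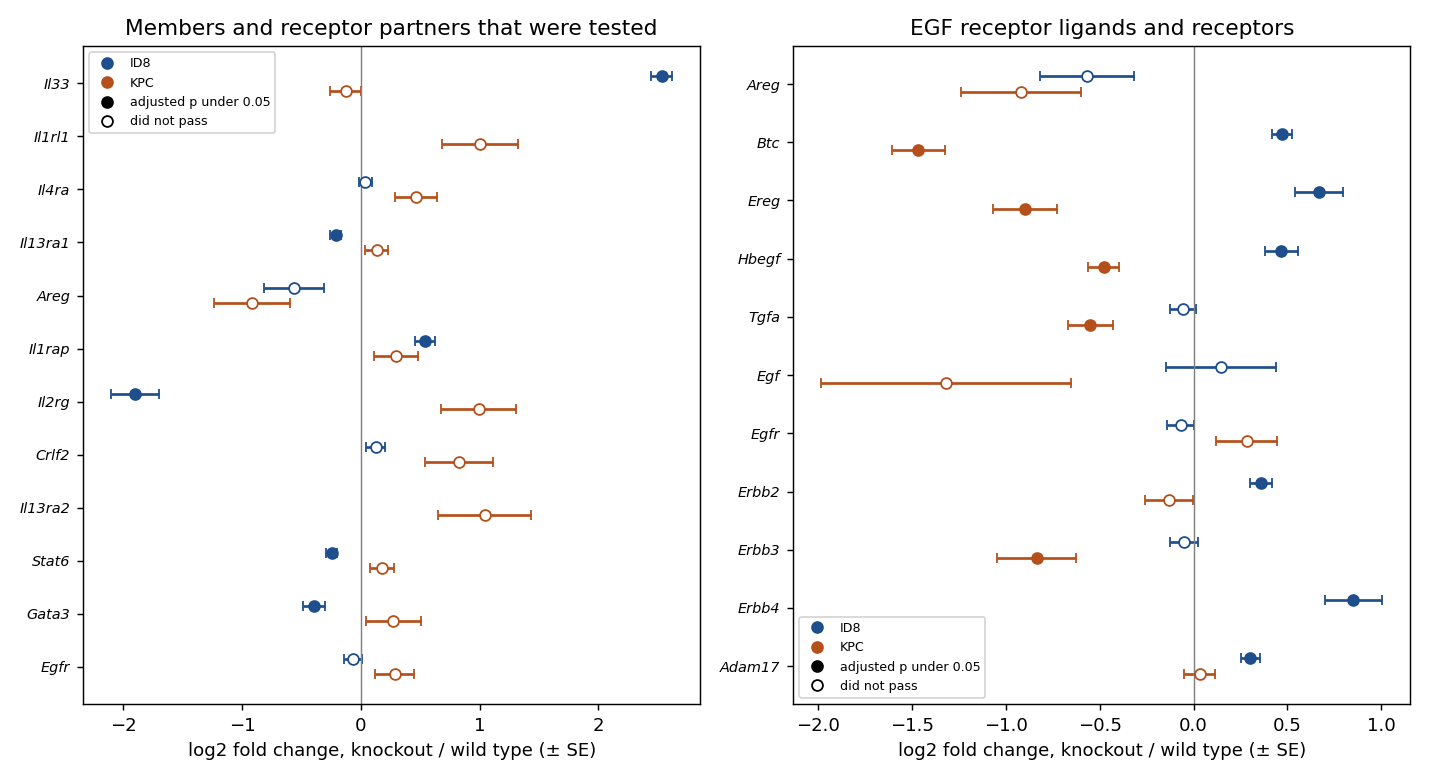
Log2 fold change of knockout against WT with its SE, for the tested members and receptor partners (left) and the EGF receptor family (right). Blue is ID8 and orange is KPC, filled points passed an edgeR adjusted p of 0.05 and open points did not. Il33 in ID8 lies at 2.53 with KPC at -0.13, and Btc, Ereg and Hbegf lie above 0 in ID8 and below 0 in KPC.

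Areg had lower means in the knockouts of both lines and passed the test in neither. ID8 WT had 2.19, 1.69 and 1.37 CPM and ID8 knockout 1.53, 0.922 and 1.08 CPM, with overlap. The log2 difference was -0.57 (SE 0.252, edgeR adjusted p = 0.0714), and it passed without WT replicate 3 (0.0372) or without knockout replicate 1 (0.032). Without WT replicate 1 it was -0.37 (edgeR adjusted p = 0.303) and without knockout replicate 2 it was -0.42 (0.233). KPC WT had 7.75, 9.09, 18.1, 18.5 and 9.78 CPM and KPC knockout 10.3, 5.49, 3.77, 6.38 and 7.58 CPM. Wild-type replicates 3 and 4 stood well above the rest, and knockout replicate 1 lay among the lower WT samples. The means were 12.7 ± 5.23 and 6.7 ± 2.43 CPM (SD, n = 5 each), a log2 difference of -0.92 (SE 0.32, edgeR adjusted p = 0.0787, DESeq2 adjusted p = 0.0279). An exact permutation test, two-sided, returned p = 0.0476 in KPC, unadjusted. The change was not called different between the lines (log2 difference -0.33, SE 0.528, edgeR interaction adjusted p = 0.747).

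Of the other ligands of the EGF receptor, Btc, Ereg and Hbegf rose in ID8 and fell in KPC, Tgfa fell in KPC alone by the test, Egf passed in neither line and Epgn was not tested. Btc, the gene of betacellulin, rose in ID8 from 63 ± 1.36 to 87.4 ± 5.05 CPM and fell in KPC from 31.8 ± 6.06 to 11.5 ± 1.49 CPM. Ereg, the gene of epiregulin, rose from 4.56 ± 0.208 to 7.26 ± 1.09 CPM in ID8 and fell from 9.65 ± 2.36 to 5.18 ± 0.447 CPM in KPC. Hbegf rose from 11.6 ± 0.629 to 16 ± 1.46 CPM in ID8 and fell from 92.4 ± 7.14 to 66.3 ± 6.4 CPM in KPC. The difference between the lines was -1.92 for Btc, -1.54 for Ereg and -0.93 for Hbegf on the log2 scale (edgeR interaction adjusted p of 5.576e-06, 0.000689 and 0.000233). Tgfa, the gene of transforming growth factor alpha, was at 52.2 ± 4.48 and 50.2 ± 3.14 CPM in ID8 (edgeR adjusted p = 0.527) and fell in KPC from 45.3 ± 4.31 to 30.9 ± 5.09 CPM (0.0171). Its difference between the lines did not pass (log2 -0.47, SE 0.166; interaction by edgeR, adjusted p = 0.0547). Adam17, a protease that sheds several EGF receptor ligands, amphiregulin among them, rose in ID8 from 105 ± 1.69 to 130 ± 7.02 CPM (edgeR adjusted p = 9.007e-05) and was at 84.7 ± 6.7 and 86.7 ± 8.61 CPM in KPC (0.803). Of the 12 genes of this list, 11 were tested in ID8, of which 6 rose and 0 fell (median log2 change 0.304), where 25.4% of all ID8 genes rose and 25.5% fell. In KPC 10 were tested, of which 0 rose and 5 fell (median -0.693), where 6.67% of all genes rose and 7.01% fell. Egfr itself was called in neither line, with 199 ± 23.6 and 190 ± 8.27 CPM in ID8 and 57.5 ± 12.1 and 70 ± 13.9 CPM in KPC (edgeR adjusted p = 0.466 and 0.249).

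Genes known to respond to IL-4 and IL-13 were higher in KPC knockout tumours. The list was drawn up with earlier results of these samples known, several of its genes among them, and so is no independent evidence of a direction. Of its 20 genes, 15 were tested in KPC, of which 12 rose and 0 fell, with a median log2 change of 2.17, where 6.67% of all tested genes rose. Clca1 and Chil4, each below 3 counts in 1 WT library, passed the filter on low counts only through the knockout group, where they are high. Chil3, a chitinase-like gene of alternatively activated macrophages, rose from 3.12 ± 1.25 to 60.5 ± 25 CPM. Alox15, a lipoxygenase gene of eosinophils and macrophages, rose from 4.26 ± 1.56 to 44.4 ± 24 CPM, and Ccl24, the gene of an eosinophil-attracting chemokine, rose from 6.63 ± 3.33 to 74.3 ± 48.2 CPM (edgeR adjusted p of 0.000257, 0.00109 and 0.00517). The 3 tested genes that did not pass were Il13ra2, Mrc1 and Postn. Of the untested genes, Muc5ac had 6 counts in KPC WT and 4 in KPC knockout, and Fcer2a had 12 in each. Retnlb, Itln1 and Ear11 were at 0 in both KPC groups. In ID8 only 2 of the 20 genes passed the filter on counts (Alox15 and Cish) and neither was called. Leukocyte markers, as given above, were also higher in the KPC knockout, and their part in these changes was not tested.

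**Figure D4:**
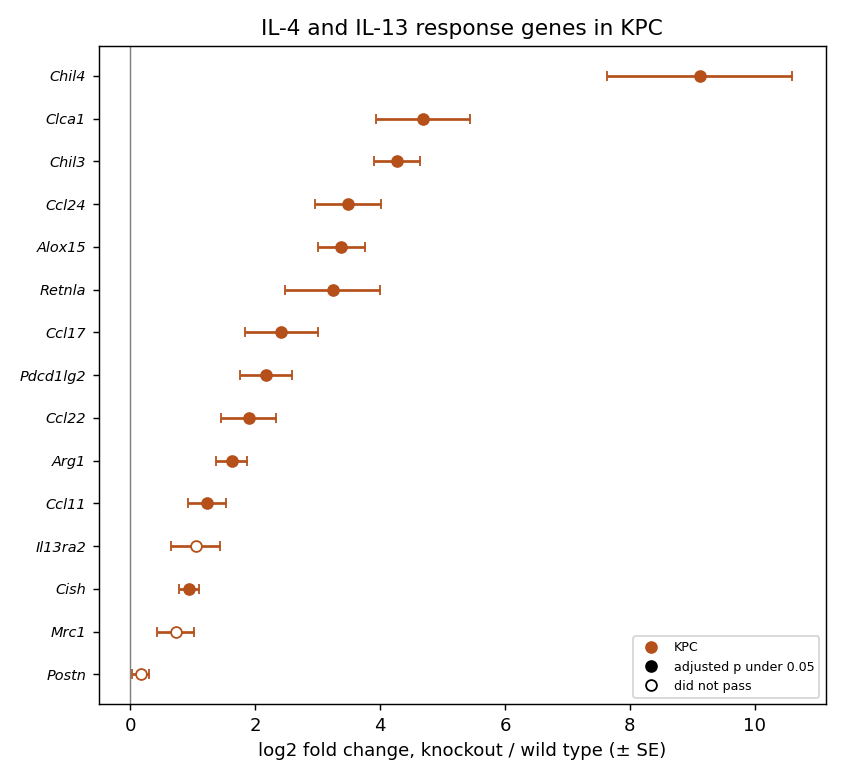
Log2 fold change in KPC, knockout against WT, with its SE, for the 15 tested genes of the IL-4 and IL-13 response list. Filled points passed an edgeR adjusted p of 0.05. All 15 lie above 0, and 12 are filled.

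Markers of the cells that make or receive these cytokines were examined in KPC, where 6.67% of all tested genes rose. The lists were chosen with earlier results of these samples known. Some genes low in WT, Il9r and Prg2 among them, passed the filter on low counts only through the knockout group, where they are high. The numbers of markers called carry that limit. Of 12 markers of group 2 innate lymphoid and Th2 cells, 2 of which are members (Il1rl1 and Areg), 10 were tested, of which 3 rose (Klrg1, Il9r and Ccr8) and 0 fell. Their summed level was 50 to 105 CPM in WT and 78.7 to 154 CPM in knockout, and none was at 0 in either group. Il9r, the IL-9 receptor gene, rose from 0.346 ± 0.214 to 1.25 ± 0.347 CPM and Klrg1 from 1.63 ± 0.777 to 5.15 ± 1.53 CPM (edgeR adjusted p = 0.0186 and 0.0115). Of 10 eosinophil markers, 6 were tested and 5 rose, among them Siglecf (from 2.87 ± 0.584 to 15.4 ± 9.61 CPM) and Prg2 (from 0.323 ± 0.399 to 4.58 ± 2.4 CPM), with a summed level of 147 to 225 CPM in WT and 250 to 431 CPM in knockout. Alox15, counted above among the IL-4 and IL-13 response genes, is also among these 5. Prg3 was at 0 in WT, and Epx, the eosinophil peroxidase gene, had a total of 3 counts in WT and of 2 in knockout. Il5ra, the IL-5 receptor gene, named after its values were seen, made up most of the WT sum and did not pass, with 160 ± 23.4 CPM in WT and 173 ± 29.7 CPM in knockout (edgeR adjusted p = 0.58). Of 12 mast cell and basophil markers, 9 were tested and 1 rose, Mcpt4 (from 30.7 ± 10.2 to 72.5 ± 20.4 CPM), a share near that of all genes. Of 6 regulatory T cell markers, all tested, 3 rose, namely Il2ra, Tnfrsf18 and Foxp3, with a summed level of 24.3 to 68.9 CPM in WT and 68.6 to 126 CPM in knockout. Of 7 tested T cell markers 1 rose (Cd2), with sums of 11.9 to 100 and 70.3 to 129 CPM. All 7 log2 changes were positive, with a median of 1.5, beside -0.0124 over all tested genes. The part of these cells in the levels of Il4, Il5, Il13, Il1rl1 and Il4ra was not tested.

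Genes whose pattern over the 10 KPC samples was most like that of each member were sought among 12585 tested genes by Pearson correlation of log2 CPM. For Il4ra these were Mmp19 (r = 0.994), Sh2b2 (0.987) and Edem1 (0.985), and for Il1rl1 they were Adora2b (0.972), Cerk (0.965) and Creb3l3 (0.964). For Areg they were Ino80c (0.972), Slc25a46 (0.965) and Cyb5r1 (0.961). For Il33 they were Spred1 (0.906), Tmem68 (0.904) and Rbm39 (0.895), and for Il13ra1 M6pr (0.905), Nrbf2 (0.892) and Bet1 (0.888). Within the 5 WT samples alone r was 0.691 to 0.992 for these 15 pairs, and within the 5 knockout samples it was 0.854 to 0.992. These are descriptions of 10 samples that share genotype groups and tumour composition, and the highest of 12585 values is high by selection.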

How the data were processed

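RNA of 16 samples that the labels call mouse tumours was sequenced. The deposited files give expected counts per gene, which the authors made with HISAT and RSEM 1.2.8, with GRCm39 (mm39) as build, as the submitters' processing notes state. These are not normalized, and each table lists only genes above 0 in at least 1 of its samples. Genes missing from a table were taken as 0, and the expected counts were used rounded. Each line was fitted alone with edgeR 4.0.16 (R 4.3.3): TMM, filterByExpr, robust quasi-likelihood test, Benjamini-Hochberg adjustment over all genes, threshold 0.05. An interaction contrast over all 16 libraries compared the lines. SE was taken as the size of the log2 change over the square root of F, an approximation. Permutation tests used log2(CPM + 1) unless counts are named. The fits were tested on data simulated from their own model, with changes set only in genes of higher counts. Genes as low as Il4, Il5 and Il13, and the fit without the filter, were not covered.

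Named genes were the 9 members, Trp53bp1, 7 partners given whatever they did, up to 3 called genes of smallest p per list and line, and the 3 genes most correlated with each member of at least 1 CPM. Markers at 0, untested genes and genes that did not pass were named after their values were seen. The members and lists were chosen with earlier results of these data known. In KPC, 0 of 8 macrophage, 0 of 8 endothelial, 0 of 6 adipocyte, 0 of 10 fibroblast and 0 of 10 skeletal muscle markers were called. The log2 changes were positive for all 8 macrophage (median 0.657), 7 endothelial (0.123) and 9 fibroblast markers (0.137). They were negative for all 6 adipocyte (median -1.19) and all 10 skeletal muscle markers (-2.07). Alternatives were median-of-ratios factors, DESeq2 1.42.0, no filter, a 1 CPM filter, a replicate block, genes listed in every table, and leaving out each library. Leaving out libraries with Acta1 above 1000 CPM was added after the data were seen. No replicates of a group agreed within sampling noise (lowest chi-square per gene 4.36).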

Additional observations from a re-analysis of the deposited data

Results flagged for a closer look

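The knockout effect on Il33 differed between the lines, as the interaction test of that difference itself passed: KPC minus ID8 was -2.63 in log2 units (SE 0.204; interaction by edgeR, adjusted p = 8.05e-07). All 3 ID8 knockout samples were above all 3 ID8 WT samples, in a line where genotypes did not overlap for 58.0% of tested genes. In KPC the mean of Il33 was 131 CPM in WT and 120 CPM in knockout with overlapping ranges. The ID8 libraries had 0 counts of Ptprc and Cdh5, while Ptprc was at 51 to 140 CPM in KPC WT and 105 to 222 CPM in KPC knockout. A difference between the lines thus cannot be told apart from a difference in the cells sampled. The lines differed in Il33 before the knockout, with WT means 30.8 times apart, and replicates varied less in ID8 (biological coefficient of variation 5.08%) than in KPC (25.1%), while the interaction fit used 1 estimate for both. Over 34 KPC groups of 5 samples (the members, Trp53bp1 and the partners named whatever they did), no sample stood apart from its group by Dixon's criterion.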

How the results depend on the processing

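Il33 and Il13ra1 kept their calls in ID8, and Il33 its interaction call, under every alternative run. Leaving out each library gave log2 changes of 2.50 to 2.58 for Il33 in ID8, -0.80 to -0.37 for Areg in ID8, -1.11 to -0.74 for Areg in KPC, 0.74 to 1.15 for Il1rl1 in KPC, 0.34 to 0.58 for Il4ra in KPC and 0.30 to 0.45 for the Il13ra1 interaction. It gave 5355 to 5786 called genes in ID8, 927 to 3106 in KPC (3106 without wild-type replicate 4, 927 without wild-type replicate 1) and 2296 to 3552 by interaction, with 2 to 3, 0 to 1 and 1 to 2 members called. The DESeq2 Wald test called 3162 genes in KPC against 1954, with 3 members, namely Il1rl1 (1.01), Il4ra (0.47) and Areg (-0.92), and called 2 members by interaction, adding Il13ra1 (0.36, adjusted p 0.0499). Dropping the low-count filter called 3 members in KPC (Il4, Il5 and Il13), since these are otherwise not tested. The replicate block, for numbers that are not taken as pairs, called 2 members in KPC, Il1rl1 (0.95, adjusted p 0.0466) and Il4ra (0.44, adjusted p 0.0471), and changed no other member's call. Same-numbered samples correlated at -0.11 to 0.136 in ID8 and at -0.535 to 0.587 in KPC, and not every sample correlated best with its own number. Without the libraries with Acta1 above 1000 CPM, 2 members were called by interaction, adding Il13ra1 (0.42, adjusted p 0.00545). The cause of these differences between settings was not tested. Depth limits Il4, Il5, Il13 and Tslp: none exceeded 19 counts in any library, so no fold change of theirs is precise. Interaction values of Tslp and Il1rl1 rest on at most 5 counts per ID8 library, and Il4 and Il13 had none in ID8, so no interaction was computed for these. Tslp under 5 alternatives could not be fitted by interaction because it did not pass the filter.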

Other observations

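Cytokines of other immune arms were described beside the type 2 genes. Of 13 type 1 and type 17 cytokine genes, 4 were tested in KPC and 1 rose, where 6.67% of all tested genes rose. That gene was Tnf, which rose from 5.49 ± 2.02 to 11 ± 0.84 CPM (SD, n = 5 each, edgeR adjusted p = 0.0199). Ifng, the gene of interferon gamma, did not pass the count filter, with 20 counts over the 5 KPC wild-type and 61 over the 5 knockout libraries. In ID8 the only tested gene of that list, Il15, rose from 0.332 ± 0.108 to 1.18 ± 0.133 CPM (n = 3 each, edgeR adjusted p = 0.000225). Of all tested ID8 genes, 25.4% rose. Of 18 IL-1 family ligand and receptor genes, 8 were tested in ID8 and 4 rose, where 25.4% of all genes rose (50.8% called in all), among them Il33, Il18rap (from 21.9 ± 1.58 to 34.9 ± 0.498 CPM) and Il1rap. In KPC 14 were tested and 1 rose, a share near the 6.67% of all genes, namely Il1rn, the gene of the IL-1 receptor antagonist, from 139 ± 14.4 to 208 ± 25.1 CPM (edgeR adjusted p = 0.00629).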
